A study of Mus musculus with 4 samples.

Results

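The transglutaminases Tgm1, Tgm2, Tgm3 and Tgm5 and the peptidylarginine deiminases Padi1, Padi2, Padi3 and Padi4 were followed in back skin that lacked Fgf18 in its epithelium and in control skin. These 8 genes were chosen with earlier results of these data known. Every non-control probe whose gene name was one of these 8 symbols was taken, with no measured value used in the choice of probes. This gave 12 of the 41174 probes and 8 of the 28034 gene names on the array. Full-thickness dorsal skin came from male mice aged 42 days, and the labels give the hair cycle stage as telogen, the resting phase. In the group called cKO below, Fgf18, a fibroblast growth factor gene, was deleted in keratin 5-positive epithelial cells. In the group called WT, the mice are described as C57BL/6 controls, and the labels give the strain C57BL/6 for both groups. They do not say whether the controls carried a Cre driver or a floxed allele. PolyA RNA of 3 mice was pooled per group, and each pool was labelled with Cy3 (200 ng RNA) and hybridised to 2 one-colour arrays. Each group is therefore 1 pool measured in technical duplicate. All SDs, SEs and p-values below measure the spread between duplicate arrays and compare 2 RNA pools, since pooling removes the spread between mice.

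The array's 75th percentile of signal, to which all levels were scaled, lay between 1271 and 1453, and 62.07% to 69.13% of spots were well above background. Duplicates correlated at r = 0.9967 (cKO) and 0.9958 (WT) across 17550 genes, which are not independent replicates, and arrays of different pools at 0.9621 to 0.9642. For Fgf18 itself the cKO arrays read 5096 and 5293 and the WT arrays 5748 and 6076 (log2 change -0.33, SE 0.025, adjusted p = 0.0035), short of the fold threshold. Which stretch of Fgf18 was removed is not stated in the labels, so this probe is no check of them. Of 7 tested inner root sheath genes 6 were called higher in cKO by the rule given below, where 5.68% of all genes tested were. The summed scaled level of this list was 222 to 225 against 4.58 to 4.64 in WT. All 14 tested genes of the hair shaft and matrix were called higher too (122 to 123 against 1.31 to 1.33). Both groups are nevertheless labelled telogen. In these lists 2 inner root sheath and 4 shaft genes were not well above background in WT and were tested through cKO alone. Over the alternative processings 4 to 6 and 10 to 14 genes were called higher.

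Transglutaminases are calcium-dependent enzymes that join glutamine to lysine side chains, and in skin they weld structural proteins into the cornified envelope of the epidermis and into the hardened layers of the hair. Peptidylarginine deiminases turn arginine into citrulline, which removes a positive charge and loosens filament-binding proteins such as filaggrin and trichohyalin. In the hair follicle, trichohyalin of the inner root sheath is a known substrate of both families, deiminated by Padi3 and then cross-linked by Tgm3.

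All 8 genes and all 12 probes passed the filter on dim probes, which asks for 2 arrays well above background in 1 group or the other, and no spot was saturated. A gene was called at a Benjamini-Hochberg adjusted p under 0.05 in limma together with a change of at least 1.5-fold, and rose and fell are used below for called genes alone. By this rule 5 of the 8 genes were called, where 10.5% of all genes tested were. Padi1, Padi3, Padi4 and Tgm3 rose (5.68% of all genes were called higher), Tgm2 fell (4.81% were called lower), and Tgm1, Tgm5 and Padi2 were not called. Of the 12 probes 9 were called, where 9.71% of all probes tested were, with 6 higher (4.92% of all probes) and 3 lower (4.79%). The cKO arrays did not overlap the WT arrays for any of the 12 probes, which was also the case for 79.8% of all probes tested, so this separation alone does not set them apart. In 5 genes both cKO arrays lay above both WT arrays (33.8% of all genes) and in 3 below (48.1%).

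**Figure D1:**
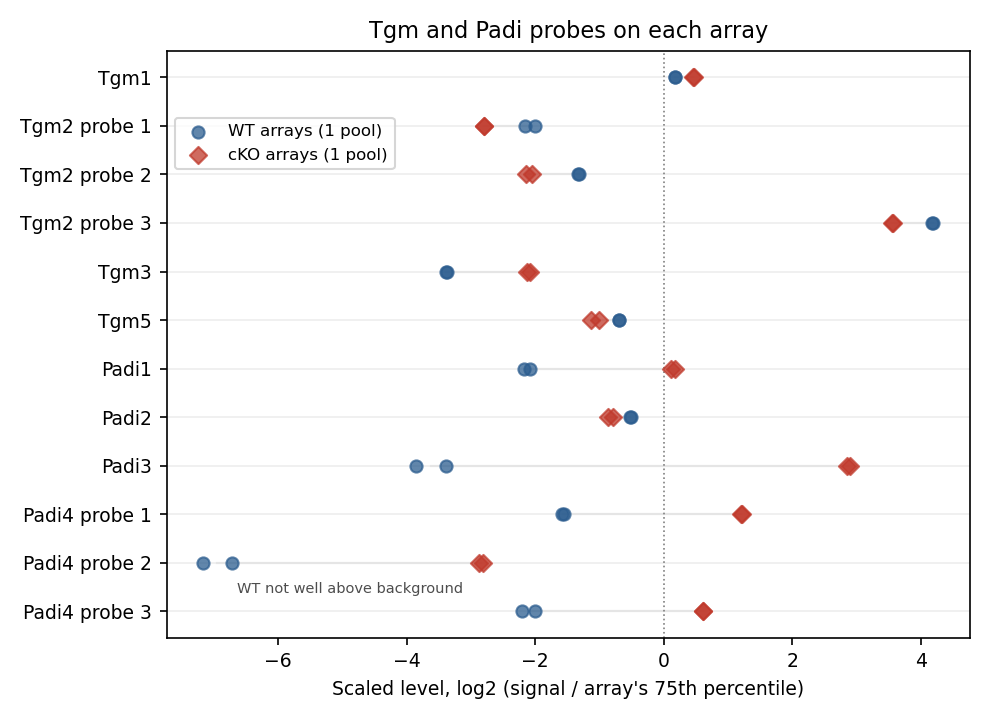
Scaled level of each Tgm and Padi probe on each array, as log2 of the signal over the array's 75th percentile, with WT arrays as circles and cKO arrays as diamonds (2 arrays of 1 pool each). The diamonds lie far right of the circles for Padi1, Padi3, Padi4 and Tgm3 and left of them for Tgm2. Levels of different probes are not comparable. Probes 1 to 3 are A_51_P182794, A_51_P182796 and A_52_P220879 for Tgm2, and A_51_P255875, A_52_P278047 and A_52_P514061 for Padi4.

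Padi3, the deiminase of the inner root sheath and hair cuticle that acts on trichohyalin and S100a3, rose by the largest factor of the 8 genes. The cKO arrays read 10424 and 10536 signal units and the WT arrays 88.3 and 126. Both cKO arrays were far above both WT arrays, and the WT duplicates differed more from each other (0.47 on the log2 scale) than the cKO duplicates. On the scaled log2 axis the cKO mean was 2.88 ± 0.025 and the WT mean -3.61 ± 0.33 (SD, n = 2 arrays), a log2 change of 6.49 (SE 0.18, adjusted p = 0.00093), or 89.9-fold. Padi3 ranked 57th from the highest change among all genes tested, and 0.319% of genes changed as much or more upward. With normexp background correction and quantile normalization its log2 change was 5.80. The probe (NM_011060) lies on chromosome 4 from 140341364 to 140341423 on mm9, on the minus strand.

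Padi4, best known as the nuclear deiminase of granulocytes that citrullinates histones, rose by the next largest factor and was read by 3 probes. The brightest, A_51_P255875, read 3243 and 3371 in cKO and 433 and 438 in WT. The larger gap between its duplicates was 0.033 on the log2 scale, the smallest among the 4 risen members, and the groups stood well apart, with a log2 change of 2.78 (SE 0.026, adjusted p = 0.00014), or 6.87-fold. A neighbouring probe, A_52_P514061, gave 2143 and 2223 in cKO and 317 and 286 in WT. Its log2 change in the fit over probes was 2.71 (SE 0.080, adjusted p = 0.0016), close to that of the brightest probe. The other probe, A_52_P278047, lies apart from these on the chromosome, from 140315903 to 140315962 on mm9 against 140301793 to 140301852 for the brightest one. It gave 190 and 208 in cKO and 12.0 and 9.15 in WT, where neither array was well above background. With the main processing, Padi4 by this probe was at least 4.86-fold higher in cKO. The fitted log2 change was 4.10 (SE 0.18, adjusted p = 0.0024 over probes). It was 1.72, below that bound, with normexp and quantile normalization. The sequence of this probe is shown because it reads Padi4 at base 565 of the transcript, far from the probes at bases 2210 and 2328.
Padi4 (A_52_P278047): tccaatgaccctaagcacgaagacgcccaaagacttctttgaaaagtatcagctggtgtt

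Padi1, the deiminase of the upper epidermis that acts on filaggrin and keratin 1, rose as well. Its probe read 1590 and 1566 in cKO and 280 and 311 in WT, with no overlap. The mean scaled log2 levels were 0.14 ± 0.051 (cKO) and -2.13 ± 0.069 (WT, SD, n = 2 arrays). The log2 change was 2.28 (SE 0.052, adjusted p = 0.00072), or 4.84-fold, and 1.08% of genes tested changed as much or more upward. Padi2, the most widely expressed deiminase, known for citrullinating myelin basic protein in brain, did not share this direction. Its probe read 815 and 794 in cKO and 883 and 921 in WT, so that both cKO arrays were slightly lower. The log2 change was -0.31 (SE 0.040, adjusted p = 0.0099), 1.24-fold lower and short of the fold threshold.

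To see how alike the probes are, shared runs of bases were measured. The longest run of identical bases between probes of different Padi genes was 8 of 60, and it was also 8 between probes of different Tgm genes. Between the families, the brightest Padi4 probe and the Tgm3 probe shared 10 bases, and the Padi1 and Tgm5 probes shared 9. Cross-hybridisation between members was not tested beyond this comparison.

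The 4 Padi genes lie in 1 stretch of chromosome 4, and the 3 that rose are neighbours. Seen from the Padi3 probe, the Padi4 probe lies at -39.57 kb, the Padi1 probe at 27.8 kb and the Padi2 probe at 166.9 kb on mm9. The Padi1 probe (NM_011059) covers 140369162 to 140369221 on the minus strand, shared by Padi3 and Padi4, and the Padi2 probe (NM_008812) covers 140508295 to 140508354 on the plus strand. Of the 11 other tested genes within 500 kb of the Padi3 probe, 1 was called higher (5.68% of all genes tested were) and 1 lower (4.81%). These were LOC100047340 (log2 change 0.60 at -62.36 kb) and Sdhb, a subunit of mitochondrial complex II (-0.64 at 183.4 kb), both named after their values were seen. The oocyte deiminase Padi6, of the same gene family, was not tested, because it was well above background on 1 WT array alone. It read 7.60 and 4.56 in cKO and 7.97 and 74.2 in WT.

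**Figure D2:**
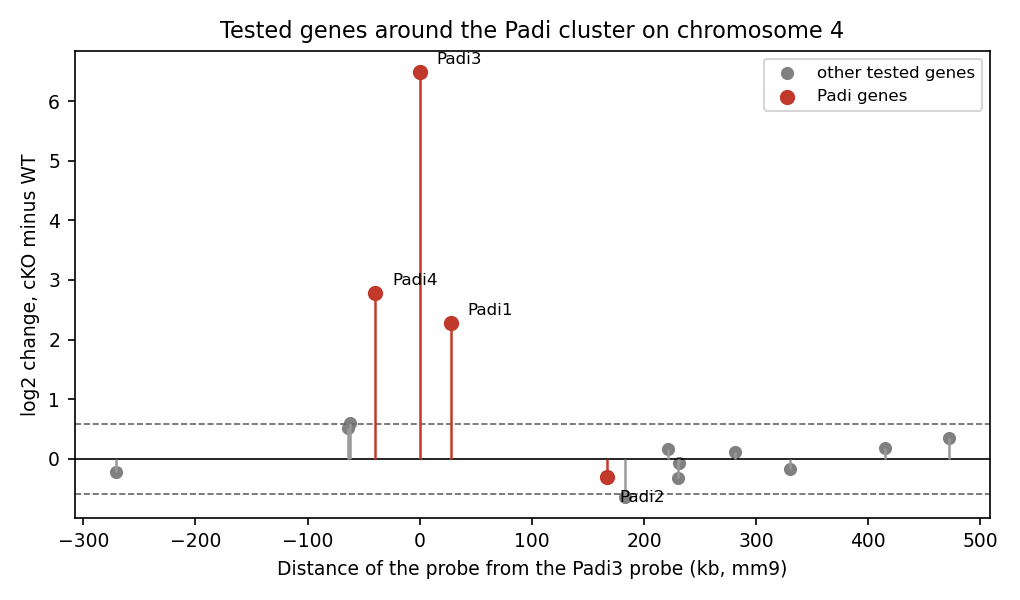
Log2 change, cKO minus WT, of every tested gene within 500 kb of the Padi3 probe, placed by distance from it in kb on mm9; dashed lines mark 1.5-fold. Padi4, Padi3 and Padi1 (2.78, 6.49 and 2.28) stand above the dashed line next to each other, while Padi2 (-0.31) and most other genes lie between the lines.

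Because Padi1, Padi3 and Padi4 rose together, the 250 bases before each RefSeq start (GRCm38.p6) are shown, with Padi2 from the same stretch for comparison. Capitals mark matches, on either strand, to a set of 6 motifs. Among promoter boxes these were TATAAA for the TATA-binding protein, the CCAAT box as spelled by its name, and GGGCGG for Sp1. Among factor sites they were TGANTCA for AP-1, where N is any base, then CTTTGA for the LEF/TCF factors, and TAATTA for homeobox proteins. No printed matches of different motifs overlap.
Padi3, chr4:140810649-140810898, minus strand: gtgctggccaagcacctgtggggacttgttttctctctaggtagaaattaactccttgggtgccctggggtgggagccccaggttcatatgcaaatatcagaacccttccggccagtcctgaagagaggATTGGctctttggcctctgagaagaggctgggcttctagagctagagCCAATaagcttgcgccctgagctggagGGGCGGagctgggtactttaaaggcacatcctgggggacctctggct
Padi4, chr4:140774204-140774453, minus strand: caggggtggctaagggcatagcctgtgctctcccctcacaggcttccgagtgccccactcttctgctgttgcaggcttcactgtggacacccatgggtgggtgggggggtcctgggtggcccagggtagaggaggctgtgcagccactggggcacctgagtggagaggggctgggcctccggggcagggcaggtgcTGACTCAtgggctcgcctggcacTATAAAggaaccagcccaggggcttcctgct
Padi1, chr4:140845779-140846028, minus strand: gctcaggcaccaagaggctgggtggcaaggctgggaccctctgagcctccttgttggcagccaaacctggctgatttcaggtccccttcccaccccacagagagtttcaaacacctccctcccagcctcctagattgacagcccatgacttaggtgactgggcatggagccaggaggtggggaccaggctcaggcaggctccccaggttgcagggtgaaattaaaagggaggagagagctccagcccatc
Padi2, chr4:140906110-140906359, plus strand: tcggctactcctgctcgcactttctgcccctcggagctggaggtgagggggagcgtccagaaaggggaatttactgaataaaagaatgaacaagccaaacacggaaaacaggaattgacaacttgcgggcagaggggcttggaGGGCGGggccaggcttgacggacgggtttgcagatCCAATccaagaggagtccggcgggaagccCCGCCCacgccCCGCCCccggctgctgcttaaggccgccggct

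The 3 windows of the risen Padi genes shared none of these motifs. That of Padi3 held 2 CCAAT boxes, 121 and 74 bases before the start, and 1 Sp1 box at 47. That of Padi4 held a TATA box at 31 and an AP-1 site, tgactca, at 54. That of Padi1 held none of the 6, and that of Padi2 held 1 CCAAT box and 3 Sp1 boxes. Among all 32851 windows of this length, 33.8% held a CCAAT box, 32.7% an Sp1 box, 12.4% a TATA box, 13.8% a LEF/TCF site, 6.75% an AP-1 site and 4.84% a homeobox core. A match is a string of letters and not a measured binding site.

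Among the transglutaminases, Tgm3 rose and Tgm2 fell, both by less than the Padi genes that rose. Tgm3 is made as an inactive precursor in the hair follicle and upper epidermis and is cut by a protease to become active. The cKO arrays read 320 and 344 and the WT arrays 122 and 126, without overlap. The mean scaled log2 levels were -2.10 ± 0.038 (cKO) and -3.38 ± 0.0061 (WT, SD, n = 2 arrays), a log2 change of 1.28 (SE 0.030, adjusted p = 0.00078). As many as 2.27% of all genes tested changed as much or more upward, so Tgm3 lay further from the top of the array than the risen Padi genes. The probe (NM_009374, chromosome 2 from 129874069 to 129874128 on mm9, plus strand) is the single one for Tgm3, and its sequence is shown for that reason with the 250 bases before the RefSeq start.
Tgm3 probe (A_51_P495560): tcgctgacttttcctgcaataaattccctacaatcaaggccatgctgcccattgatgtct
Tgm3, chr2:130012090-130012339, plus strand: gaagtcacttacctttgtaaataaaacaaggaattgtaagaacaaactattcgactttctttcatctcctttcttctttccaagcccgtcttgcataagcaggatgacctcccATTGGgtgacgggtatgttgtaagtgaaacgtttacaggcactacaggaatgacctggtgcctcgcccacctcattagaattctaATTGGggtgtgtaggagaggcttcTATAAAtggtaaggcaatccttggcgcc

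The Tgm3 window held a TATA box 28 bases before the start and 2 CCAAT boxes, at 137 and 52. It shared the CCAAT box with Padi3 and the TATA box with Padi4. Over all member genes, 8 windows were found, 2 of them for Tgm1, and there was no entry for Tgm2. A CCAAT box was present in 5 of the 8, an Sp1 box in 3, a TATA box in 2, and an AP-1 site and a LEF/TCF site in 1 each.

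Tgm1, the membrane-anchored enzyme of the epidermis that builds the cornified envelope and attaches ceramides to it, was not called. Its probe read 1923 and 2008 in cKO and 1435 and 1480 in WT. Both cKO arrays were higher, but the log2 change was 0.29 (SE 0.023, adjusted p = 0.0036), or 1.22-fold. Tgm5, an enzyme of the upper epidermis whose loss causes peeling skin, read 698 and 667 in cKO and 788 and 814 in WT. Here both cKO arrays were lower, with a log2 change of -0.37 (SE 0.050, adjusted p = 0.010), or 1.30-fold lower, and it was not called either. The log2 changes of Tgm5 and Padi2 (-0.37 and -0.31) are neighbours in the order of the 8 members, and the difference between them was not tested. The Tgm1 probe (NM_019984) lies on chromosome 14 from 56319032 to 56319091, and the Tgm5 probe (NM_028799) on chromosome 2 between 120874883 and 120878163, both on the minus strand of mm9.

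Tgm2, the tissue transglutaminase found in endothelium, smooth muscle and fibroblasts among other cells, fell by its brightest probe and was lower by all 3. The brightest probe, A_52_P220879, read 16421 and 17238 in cKO and 23065 and 24129 in WT. It lies on chromosome 2 from 157942275 to 157942334 on mm9, minus strand (NM_009373). The groups did not overlap, and the log2 change was -0.63 (SE 0.024, adjusted p = 0.0014), or 1.55-fold lower. This is just past the fold threshold, and Tgm2 was not called with quantile normalization (-0.50) or with normexp and quantile normalization (-0.49). The probe A_51_P182794 gave 202 and 208 in cKO and 318 and 296 in WT, a log2 change of -0.72 (SE 0.063, adjusted p = 0.0058 over probes), and with normexp and quantile normalization (-0.57) it too was short of 1.5-fold. The probe A_51_P182796 gave 339 and 328 in cKO and 510 and 523 in WT, a log2 change of -0.77 (SE 0.045, adjusted p = 0.0033 over probes). These last probes are not independent readings, since they share 20 bases, shown in capitals. The second of them spans 1201 bases of mm9, from 157944682 to 157945882 on chromosome 2, although it is 60 bases long, so it joins parts of the transcript that are apart in the genome.
Tgm2 (A_51_P182794): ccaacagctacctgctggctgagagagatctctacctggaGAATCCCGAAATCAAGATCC
Tgm2 (A_51_P182796): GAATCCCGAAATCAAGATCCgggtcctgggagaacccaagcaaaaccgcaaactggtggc

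**Figure D3:**
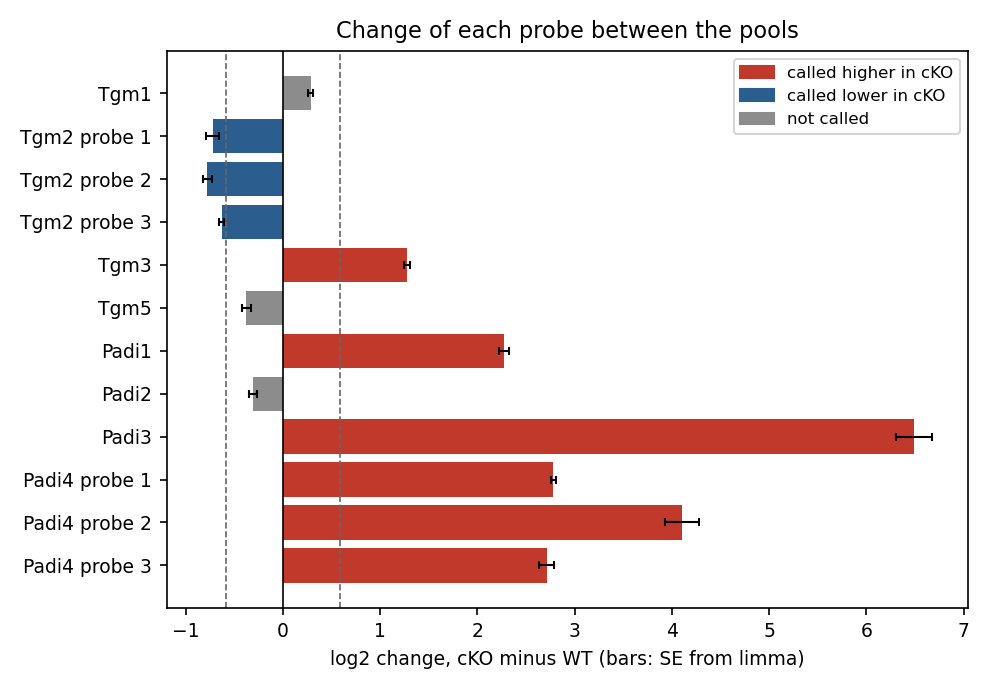
Log2 change, cKO minus WT, of each probe, with the SE from limma as error bars; red bars were called higher, blue bars lower, grey bars were not called, and dashed lines mark 1.5-fold. Padi3 reaches 6.49, the 3 Padi4 probes lie between 2.71 and 4.10, and the 3 Tgm2 probes lie between -0.77 and -0.63.

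In bulk skin, a lower signal can come from fewer cells of a type or from less RNA per cell, and these cannot be told apart. Markers of cell types known to express Tgm2 were also lower in part. For the counts that follow, 5.68% of all genes tested were called higher and 4.81% lower. Of 10 endothelial markers 1 fell, Emcn (log2 change -0.79), with a list median of -0.25 and a summed scaled level of 19.5 to 19.8 in cKO against 23.7 to 23.8 in WT. Of 6 smooth muscle markers 2 fell, Acta2 (-0.76) and Des (-0.68), with a list median of -0.27. The sum over the list was 71.9 to 72.5 against 109 to 112, most of that gap being Acta2, and without Acta2 it was 23.5 to 23.7 against 28.3 to 28.5. The probes of Acta2 disagreed, from -0.76 to 0.02, and with their mean, with quantile normalization or with normexp and quantile normalization Acta2 was not called. Of 7 fibroblast markers Lum fell (-0.63, not called with either of those normalizations) and Dpt rose (0.77), with a list median of -0.13. Over the alternatives this median ran from -0.44 to 0.013. The sum over the fibroblast list was 776 to 778 in cKO against 835 to 916 in WT. The part of these cells in the lower Tgm2 signal was not tested.

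For Padi4, markers of neutrophils were examined because granulocytes express it. Of 12 listed genes 11 were on the array and 4 were tested, with a median log2 change of 0.10. Their summed scaled level was 1.70 to 1.73 in cKO against 2.18 to 2.21 in WT, and without S100a9, the largest term, it was 0.694 to 0.695 against 0.525 to 0.543, the opposite direction. Mpo rose (0.70; not called with normexp and quantile normalization) and S100a9 fell (-0.70), while S100a8 and Csf3r were not called (0.32 and -0.12). Cxcr2, Mmp8, Elane and Ngp were not well above background on any array. The part of granulocytes in the rise of Padi4 was not tested. None of 10 macrophage markers was called, with a median of -0.10.

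Beyond the 8 members, the family list held Tgm4, Tgm6, Tgm7, the factor XIII subunits F13a1 and F13b, the inactive erythrocyte relative Epb42, and Padi6. Of these 7 genes 6 were on the array, 3 were tested and 1 was called, where 10.5% of all genes tested were. Tgm6, a transglutaminase best known from the nervous system, read 139 and 153 in cKO, and 8.57 and 11.5 in WT, where it was not well above background. It thus passed the filter through cKO alone. With probes well above background on all arrays, no gene of this list was called higher. With the main processing Tgm6 was at least 3.57-fold higher (fitted log2 change 3.73, adjusted p = 0.0015, and 1.38, below that bound, with normexp and quantile normalization). It lies 105.2 kb from the Tgm3 probe on chromosome 2. Of 11 tested genes within 500 kb of that probe 2 were called, both higher, where 5.68% of all genes tested were. The other was the transcription factor gene Ebf4 (0.76, named after its value was seen). F13a1 (log2 change -0.16, adjusted p = 0.027) and Tgm4 (-0.22, adjusted p = 0.13) were not called. Within 500 kb of Tgm2 none of 8 tested genes was called, and of Tgm5 none of 30, where 10.5% of all genes tested were. Near Tgm1 1 of 37 was called higher (5.68% of all genes) and 2 lower (4.81%).

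To see which genes moved most like the members with the largest changes, the distance between scaled log2 levels over the 4 arrays was taken after subtracting each gene's WT mean. The 5 genes nearest to Padi3 were Krtap19-1 (distance 0.13), the hair cuticle keratin Krt82 (0.21), Krtap12-1 (0.32), the orphan receptor gene Gprc5d (0.33) and S100a3 (0.37). S100a3 encodes a cuticle protein that Padi3 is known to deiminate. Its log2 change was 6.38 against 6.49 for Padi3, a likeness that nearness by this distance already implies. Neither WT array was well above background for Krt82 or Krtap12-1, so their distances rest on values near background. The 5 nearest to Padi4 were the proton pump gene Atp12a (0.12), AF152371 (0.15), Golga7b (0.15), ENSMUST00000051742 (0.17; not well above background in WT either) and the homeobox gene Msx2 (0.20). These distances describe 4 arrays of 2 pools.

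Known substrates of these enzymes did not move as a block. Among 40 tested proteins of the cornified envelope 6 rose (5.68% of all genes tested did) and 3 fell (4.81%). The median log2 change was -0.27, where the median of all genes tested was -0.05. It was -0.14 with quantile normalization and -0.16 with normexp and quantile normalization. Those that rose were trichohyalin, Tchh (6.10), the small proline-rich proteins Sprr2h (2.65), Sprr4 (2.30) and Sprr1a (1.87), repetin, Rptn (1.86), and Krt2 (0.63). With normexp and quantile normalization Sprr2h had 1.93, and Krt2 was not called there (0.38). Krt2 was also not called when either cKO array or WT array 1 was left out. The brightest Tchh probe read 60293 and 63303 in cKO against 769 and 869 in WT. The 2 Tchh probes gave log2 changes of 4.08 and 6.10, and their mean gave 5.09. All tested Lce genes of the list, which act late in the envelope, were lower in cKO, from -0.68 (Lce3f) to -0.26 (Lce1g). Among all genes tested, 48.1% had both cKO arrays below both WT arrays. Of the Lce genes, Lce1f (-0.59), Lce1l (-0.60) and Lce3f fell just past the threshold. None of the 3 was called with normexp and quantile normalization. Lce1f and Lce1l also lost their calls with scaling on spots well above background on all arrays, Lce1f with quantile normalization and without cKO array 1, and Lce1l without WT array 2. Without cKO array 2 or without WT array 1, 5 envelope genes were called lower. The main epidermal substrates were not called, at -0.34 for loricrin (Lor), -0.13 for involucrin (Ivl), 0.16 for filaggrin (Flg), -0.32 for Flg2, -0.54 for Hrnr, -0.44 for Krt1 and -0.28 for Krt10.

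Among 9 known deiminated proteins 2 rose (5.68% of all genes tested did) and 1 fell (4.81%), with a median of -0.32. This median was -0.19 with quantile normalization and -0.20 with normexp and quantile normalization. S100a3 (6.38) and trichohyalin rose, both proteins of the hair follicle. Myelin basic protein, Mbp, a substrate of Padi2 in the nervous system, fell (-0.71, with its 3 probes from -0.95 to -0.18). The Schwann cell and myelin markers, a list that also holds Mbp, had a median of -0.50. Vim, another deiminated protein, was not called (-0.47). None of the 7 proteases and inhibitors that act on transglutaminases or on deiminated filaggrin was called. These include Cst6, the cystatin that restrains the protease step upstream of Tgm3 (0.28, adjusted p = 0.012), and the protease Ctsd (-0.07, or 0.094 and 0.14 with the 2 quantile-based normalizations). None of 5 tested genes of the lipid envelope that Tgm1 joins to protein was called, with a median of -0.35, among them Aloxe3 (-0.29) and Elovl4 (-0.04, or 0.048 and 0.041 with those normalizations).

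**Figure D4:**
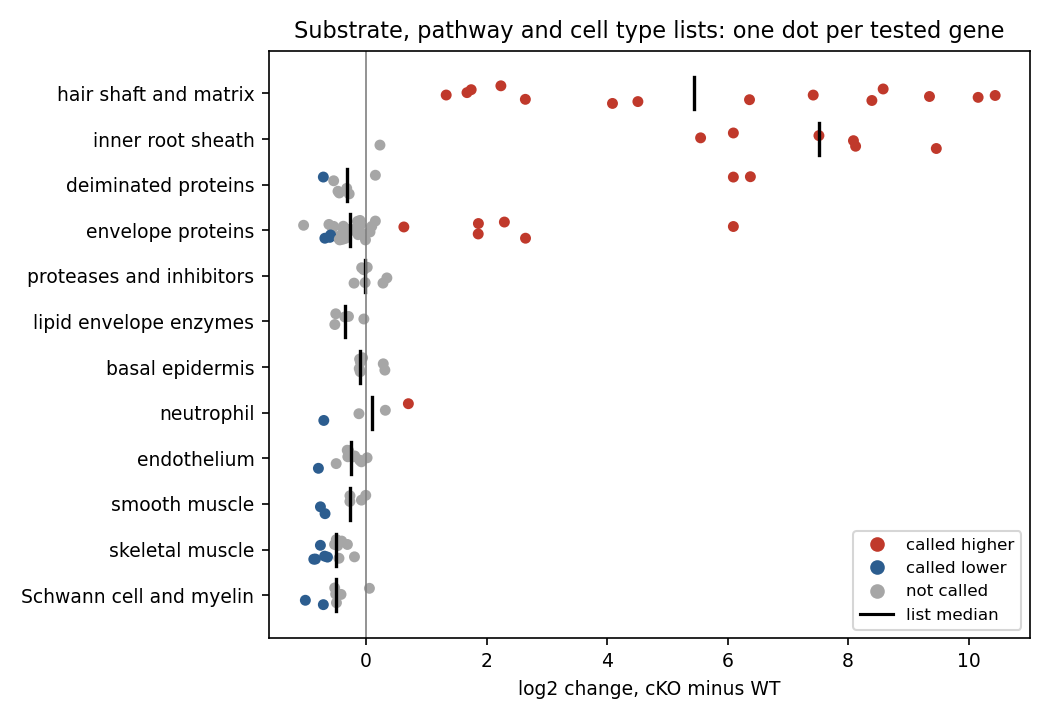
Log2 change, cKO minus WT, of each tested gene of 12 substrate, pathway and cell type lists (the family, macrophage, fibroblast and red cell lists are not drawn), with the list median as a black bar; red genes were called higher, blue lower, grey not called. The hair shaft and inner root sheath lists lie at medians of 5.44 and 7.52, while the envelope and deiminated protein lists lie near -0.27 and -0.32 with a few genes far to the right.

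Hair follicle markers rose in the same comparison as Padi3, Padi4, Padi1 and Tgm3. A comparison of 2 pools cannot show whether these genes vary together. The inner root sheath list had a median log2 change of 7.52 (6.10 with genes dim in WT at their bound), with Krt25 at least 704-fold higher and Krt71 at 8.13. The hair shaft and matrix list had a median of 5.44 (5.28 with bounds), with Krt86 at least 365-fold and Krt34 at least 633-fold higher. With normexp and quantile normalization the fitted log2 changes of Krt25, Krt86 and Krt34 were 8.05, 7.46 and 8.23, all below these bounds. That of Krt34 was 9.37 and 10.95 without WT array 1 and 2. Trichohyalin is counted in the inner root sheath list and in both substrate lists. None of 7 basal epidermis markers was called (median -0.09), with Krt5 at -0.09, Krt15 at -0.10 and Krt14 at 0.31. The part of follicle cell number in the rises of the Padi genes and Tgm3 was not tested.

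Some markers of tissue below the dermis and of blood also differed. Of 13 skeletal muscle genes 5 fell (4.81% of all genes tested did), with a median of -0.49, including Neb (-0.87) and Casq1 (-0.84). With quantile normalization, and with normexp and quantile normalization, 3 were called (medians -0.34 and -0.36). In the red cell list 2 of 4 tested genes rose (5.68% of all genes did), Ahsp at least 6.39-fold and Slc4a1 at least 5.34-fold. Both were dim in WT and passed the filter through cKO alone. With normexp and quantile normalization their fitted log2 changes were 2.03 and 1.51, below these bounds. The other 2, Hba-a1 (-0.11) and Alas2 (-0.22), were not called. The summed scaled level of the list was 7.57 to 7.63 in cKO against 7.83 to 7.99 in WT.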

How the data were processed

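The 4 one-colour Agilent arrays analysed were 2 per RNA pool, 1 pool of 3 mice per group. Per the file headers, the authors scanned and quantified them with Agilent Feature Extraction 10.7.3.1, and the deposited intensity used here is the background-subtracted, detrended processed signal. The deposited series values are a linear ratio, that intensity divided by 1 constant per array (column medians 0.101 and 0.0983 for cKO, 0.0987 and 0.101 for WT), with the scaling tool not given in the sources used here. They served as an alternative. The arrays shared a slide and a scan, so neither could be fitted as a batch.

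From the intensity, log2 minus each array's 75th percentile over 43379 non-control spots was taken. Outlier spots were set missing, and spots of a probe averaged. Probes had to be well above background on 2 arrays of a group, which left 26063 probes. The brightest kept probe stood for a gene, giving 17550 genes. The test was limma's (version 3.58.1, R 4.3.3, lmFit then eBayes, two-sided, Benjamini-Hochberg over all genes, or over all probes where stated) between the pools, without covariates. Where a probe was not well above background in a whole group, the change is given as at least N-fold. That is the bright group's mean over the dim group's detection limit, taken per array as the dimmest probe still well above background, or as the probe itself if brighter. This bound belongs to the main processing, and with normexp and quantile normalization a fitted change can lie below it. The number of arrays limits precision.

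Names came from RefSeq genes (assembly GRCm38.p6, for names only) for 26690 probes by accession, 5189 by symbol, 952 by an older symbol, and 8343 kept. Probe coordinates are those of the files, on mm9. No mm9 gene models were used here, so the exon under a probe is not stated. Promoter sequences are RefSeq's on GRCm38.p6. The limma step was tested on simulated data. Other software was data.table (version 1.17.8), Python 3.11.15, pandas 2.3.3 and matplotlib 3.10.9.

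The members, the 5 pathway lists and 11 marker lists were chosen with earlier results of these data known. Genes named were all members, Fgf18, up to 4 called genes of each pathway list with the largest change (up to 2 brightest where none was called), up to 2 called genes of each marker list (otherwise the brightest), and the 5 genes nearest to each of the 2 members with the largest change. Any other gene was named after its values were seen. A gene that the rule selects is not reported here. Alternatives were other background correction, normalization and scaling, the deposited ratios, other filters, outlier spots kept, moderation with trend and robust estimation, a replicate block, the mean of probes, and each array left out. The shared replicate numbers do not pair the arrays.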

Additional observations from a re-analysis of the deposited data

How the results depend on the processing

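Over the alternatives, 118 values of the 8 member genes kept their direction and their side of the threshold and 2 did not, both of Tgm2, which was lower throughout but not called with normexp and quantile normalization (log2 change -0.49, adjusted p = 0.0011) or with quantile normalization alone (-0.50, adjusted p = 0.0022). By probe, 164 values were kept and 3 lost their call: A_52_P220879 of Tgm2 at the same values and A_51_P182794 of Tgm2 (-0.57, normexp and quantile). The number of member genes called was 4 or 5 in every alternative and 5 with each array left out, and the number of member probes called was 7 to 9. With normexp and quantile normalization 1196 genes were called against 1840, 478 of them lower against 844, and 1517 probes against 2532. Over the alternatives the log2 change ran from 5.80 to 6.72 for Padi3, 2.61 to 3.20 for Padi4, 2.04 to 2.32 for Padi1 and 0.95 to 1.31 for Tgm3. Leaving out single arrays gave 1706 to 1937 called genes (925 to 1027 higher, 781 to 914 lower), 2258 to 2692 called probes, and 9 member probes each time. The arrays share replicate numbers only (correlation of duplicate differences -0.04 across genes), and with the number as a replicate block 1812 genes were called, with 5 member genes and 9 member probes among 2445 probes. Among the named list genes, small changes turned sign: Ctsd (0.094 with normexp and quantile, 0.14 with quantile normalization), Elovl4 (0.048 and 0.041, and from -0.072 to 5.72e-05 with single arrays left out), Lyz2 (0.012 and 0.0092), and Krt15 (0.036) and Krt5 (0.0018) with normexp and quantile. The number of envelope genes called lower ran from 0 (normexp and quantile) through 1 (scaling on spots well above background on all arrays) to 5 (trend and robust moderation), against 3, and was 5 also without cKO replicate 2 and without WT replicate 1, within 2 to 5 over the arrays left out. Without the filter on dim probes the median log2 change of all genes was -0.16 against -0.05. The causes of these shifts were not tested. Probes near background in WT limit the size of a rise, since Padi4 by its dimmest probe ranged from 1.72 to 4.32, and 2 pools limit every comparison.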
